A study of Homo sapiens with 12 samples.

Results

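The transcripts of 9 secretory and endoderm-type genes were followed in PC3 and VCaP, 2 human prostate cancer cell lines, when the forkhead factor FOXA1 was knocked down by siRNA. The genes were AGR2, AGR3, TFF1, TFF3, REG4, MUC13, TTR, VSIG1 and CREB3L1, taken by name from the 60106 genes of the deposited count tables, and all 9 were found. Their names were chosen because of how they differed between siFOXA1 and control libraries in these same data. Those differences are therefore given as a description, without p-values.

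PC3 is a line from a bone metastasis and VCaP a line from a vertebral metastasis. Each line had 3 libraries from cells given a non-targeting siRNA (NSI) and 3 from cells given siFOXA1, and RNA was taken 72 h later in all 4 groups. PC3 was kept in RPMI-1640, received 20 nM siRNA and was sequenced with a stranded mRNA kit, whereas VCaP was kept in DMEM, received 40 nM and was sequenced with a total RNA kit. Line, dose, medium, kit and the strand setting of the counting cannot be told apart, and nothing in the labels says that replicates came from separate cultures, so an error covers only the spread between these libraries. The number of different siRNAs in a transfection is not given in the sources used here. By its title, the study asked how FOXA1 acts on splicing-related genes and splicing.

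Much of what a secretory epithelium makes passes through the endoplasmic reticulum, where protein disulfide isomerases form disulfide bonds, and leaves in vesicles for the cell surface. In gut goblet cells AGR2 is needed to make mucin, and trefoil peptides are released together with mucin onto the surface. FOXA proteins are pioneer factors, which bind closed chromatin, and they take part in the development of endoderm organs such as liver, gut, lung and prostate.

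Promoter sequence from RefSeq (GRCh38.p14) was at hand for 5 of the genes, REG4, AGR2, AGR3, CREB3L1 and MUC13. Each window ran from 250 bases before to 50 bases after the start of the gene. Forkhead-type words (TGTTTAC, then TGTTTGC, then TATTTAC, then TATTTGC, then TATTGAC, then TGTTGAC, on either strand and with overlaps allowed) were searched in all 35116 promoters of that table, and 5283 (15%) held at least 1. Among the 5 genes 1 did, REG4, with TGTTTGC on the strand of the gene beginning 219 bases before its start. The 250 bases before the start are shown for REG4, which was lower with siFOXA1 in both lines, and for the paralogs AGR2 and AGR3, which went opposite ways in VCaP, with the matching word in capitals. They run 5′ to 3′ on the minus strand of chromosome 1 at chr1:119811461-119811710 for REG4, and of chromosome 7 at chr7:16805000-16805249 for AGR2 and chr7:16881984-16882233 for AGR3.
REG4: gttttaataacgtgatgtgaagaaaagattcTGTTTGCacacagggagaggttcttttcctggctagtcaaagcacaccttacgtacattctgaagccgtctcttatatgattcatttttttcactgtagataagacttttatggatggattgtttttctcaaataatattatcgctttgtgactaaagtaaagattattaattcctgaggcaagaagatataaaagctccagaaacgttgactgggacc
AGR2: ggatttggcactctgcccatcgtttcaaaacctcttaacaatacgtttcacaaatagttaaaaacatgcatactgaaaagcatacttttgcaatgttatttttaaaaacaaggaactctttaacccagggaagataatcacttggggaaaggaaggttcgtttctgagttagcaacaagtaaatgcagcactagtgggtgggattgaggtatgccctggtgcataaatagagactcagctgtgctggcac
AGR3: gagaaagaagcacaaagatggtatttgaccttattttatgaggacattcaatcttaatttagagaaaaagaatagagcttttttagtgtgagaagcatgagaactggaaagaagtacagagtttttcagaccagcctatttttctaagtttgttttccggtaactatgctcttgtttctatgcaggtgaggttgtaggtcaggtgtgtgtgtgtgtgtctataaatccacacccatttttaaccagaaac
A match in these letters is not a measured binding site, and the lack of one says only that these words are not in this window.

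A PC3 library held 123140099 to 188226483 counts and a VCaP library 48187047 to 59839211, of which mitochondrial genes took 13.1% to 15.7% and 3.02% to 4.69%. FOXA1 was at 303, 244 and 266 CPM, a count scaled to library size, in PC3 NSI and 163, 182 and 162 CPM in PC3 siFOXA1, or 62.3% of the NSI mean. In VCaP it was at 458, 468 and 544 CPM against 85.2, 73.6 and 83 CPM, or 16.5%. The log2 change was -0.68 (SE 0.10, adjusted p = 0.0022, edgeR) in PC3 and -2.60 (SE 0.09, adjusted p = 1.84e-07) in VCaP, a difference of -1.94 (SE 0.15, adjusted p = 2.98e-07), and the exact two-sided permutation test gave 0.1 in each line, the smallest p that 3 against 3 libraries allow. The lines thus also differed in how much FOXA1 RNA was left. Of 6 prostate luminal markers HOXB13 made up nearly all of the summed level in PC3, 178 to 195 TPM, the level per exon length, in NSI and 144 to 162 in siFOXA1, with KLK3 and KLK2 at no more than 0.0247 TPM in any PC3 library. The same sum was 851 to 1022 TPM in VCaP NSI and 398 to 596 in VCaP siFOXA1. Summed fibroblast markers (4 genes) went from 6.37 to 7.3 TPM in PC3 NSI up to 12.5 to 13.7 in siFOXA1 and from 2.41 to 4.53 TPM in VCaP NSI down to 0.205 to 0.784. Different genes made these shifts. In PC3 they were COL1A1 (5.23 to 5.91 against 8.77 to 9.65 TPM) and COL1A2 (1.05 to 1.36 against 3.65 to 4.04 TPM). In VCaP it was mainly LUM (2.02 to 3.72 against 0.131 to 0.198 TPM). Summed immune markers (4 genes), mainly CD14, went from 0.183 to 0.234 up to 0.345 to 0.419 TPM in PC3 and from 0.261 to 0.374 up to 0.94 to 1.33 TPM in VCaP. Epithelial markers (4 genes) summed to 283 to 361 against 266 to 294 TPM in PC3 and 190 to 217 against 155 to 195 TPM in VCaP. No marker was at 0 in every library of a group, the part of these shifts in the values that follow was not tested, and in bulk RNA fewer cells of a type and less RNA per cell cannot be told apart. As all libraries are from cell lines, the sums are levels of marker RNA and are not read as shares of fibroblasts or immune cells.

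Without knockdown the 9 genes lay at very different levels, AGR2 far above the rest. Per length of exon, in PC3 NSI, AGR2 averaged 460 TPM, TFF1 143, CREB3L1 51.3, REG4 28.4, TFF3 21.1, VSIG1 18.4 and MUC13 4.62 TPM, with AGR3 at 0.0176 TPM and TTR at 0 in all 3 libraries. TFF3 and VSIG1 overlapped, as did AGR3 and TTR, and every other pair of neighbours in this order was separated in all libraries. In VCaP NSI, AGR2 averaged 102 TPM, TTR 7.95, REG4 6.25, TFF1 2.99, TFF3 2.94, CREB3L1 2.87, AGR3 2.82, MUC13 0.0262 and VSIG1 0.0118 TPM. There only AGR2 from TTR, and AGR3 from MUC13, were neighbours that did not overlap, so the 6 genes from TTR to AGR3 form a run without a clear break.

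**Figure D1:**
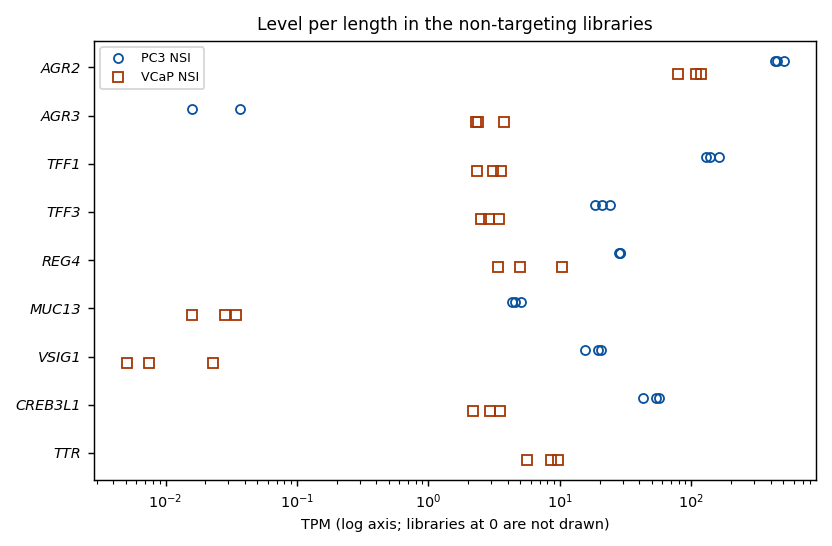
Level per exon length (TPM, log axis) of each gene in the 3 NSI libraries of PC3 (circles) and VCaP (squares). AGR2 is the highest of the 9 in both lines, VSIG1 and MUC13 stand far higher in PC3, AGR3 far higher in VCaP, and TTR, at 0 in the PC3 libraries, has points in VCaP alone.

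Set against each other gene by gene, the NSI libraries of the lines did not overlap for any of the 9 genes, but the lines differed almost everywhere: 87.0% of the 28170 genes tested passed an adjusted p of 0.05, and 9 of 9 is near that share. These NSI libraries also entered the comparisons that chose the genes. In VCaP against PC3, 7 genes were lower (44.6% of all genes) and 2, TTR and AGR3, were higher (42.4%). MUC13 was 77.2-fold lower by mean CPM (log2 difference -6.22, SE 0.24, adjusted p = 4.25e-10, edgeR), TFF1 23-fold (-4.51, SE 0.14, adjusted p = 9.84e-11) and CREB3L1 8.65-fold (-3.10, SE 0.14, adjusted p = 2.08e-09). MUC13 had 15 counts in all in the VCaP NSI libraries and passed this filter only through PC3, so its fold rests on few counts. TFF3 was 3.45-fold lower (-1.77, SE 0.14, adjusted p = 2.16e-07), while the log2 difference was -1.10 both for AGR2 (SE 0.13, adjusted p = 7.39e-06) and for REG4 (SE 0.31, adjusted p = 0.00595).

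For 3 genes 1 line held at most 7 counts over its NSI libraries, so a ratio of summed counts, each rounded to a whole number, is given. VSIG1 had 15940 counts in the PC3 NSI libraries and 7 in those of VCaP (6.75 before rounding), a ratio of 750 after scaling to library size (95% exact binomial interval 364 to 1865). AGR3 had 4 counts in PC3 NSI (3.5 before rounding) and 428 in VCaP NSI, a ratio in the other direction of 325 (126 to 1198). TTR had 0 against 1611 counts, at least 1631-fold higher in VCaP with the floor set at 3 counts over the group. These intervals and the floor cover counting error only. Counts that were not whole came from fragments divided among several places or genes.

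AGR2 and AGR3 encode related protein disulfide isomerases and lie side by side on the minus strand of chromosome 7 (GRCh37, 16831435 to 16844704 and 16899029 to 16921611), with 54.3 kb between them. With siFOXA1, AGR2 was a little lower in both lines, and AGR3, above the filter on low counts in VCaP alone, was several fold higher there. AGR2 stood at 506, 522 and 563 CPM in the PC3 NSI libraries, against 401, 442 and 402 CPM with siFOXA1. The groups did not overlap, and siFOXA1 kept 78.3% of the NSI mean (log2 change -0.35, SE 0.09). In VCaP AGR2 stood at 289, 241 and 213 CPM against 176, 144 and 95.4 CPM, again without overlap, with 56% kept (-0.84, SE 0.20). The difference between the lines was -0.50 (SE 0.23).

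AGR3 in VCaP went from 3.58, 2.05 and 2.42 CPM under NSI to 18.2, 14 and 13 CPM under siFOXA1. Every siFOXA1 library was above every NSI library, and the mean was 5.62-fold higher (log2 change 2.49, SE 0.20). In PC3 AGR3 gave 3.5 counts over the NSI libraries and 4.5 over the siFOXA1 libraries, below that filter, so nothing is said of a change there. In VCaP siFOXA1 the paralogs came closer in level, AGR2 averaging 53.1 TPM and AGR3 14.7 TPM, from 102 and 2.82 TPM in NSI. AGR2 still ranked first and AGR3 rose from the seventh to the second place among the 9 genes.

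**Figure D2:**
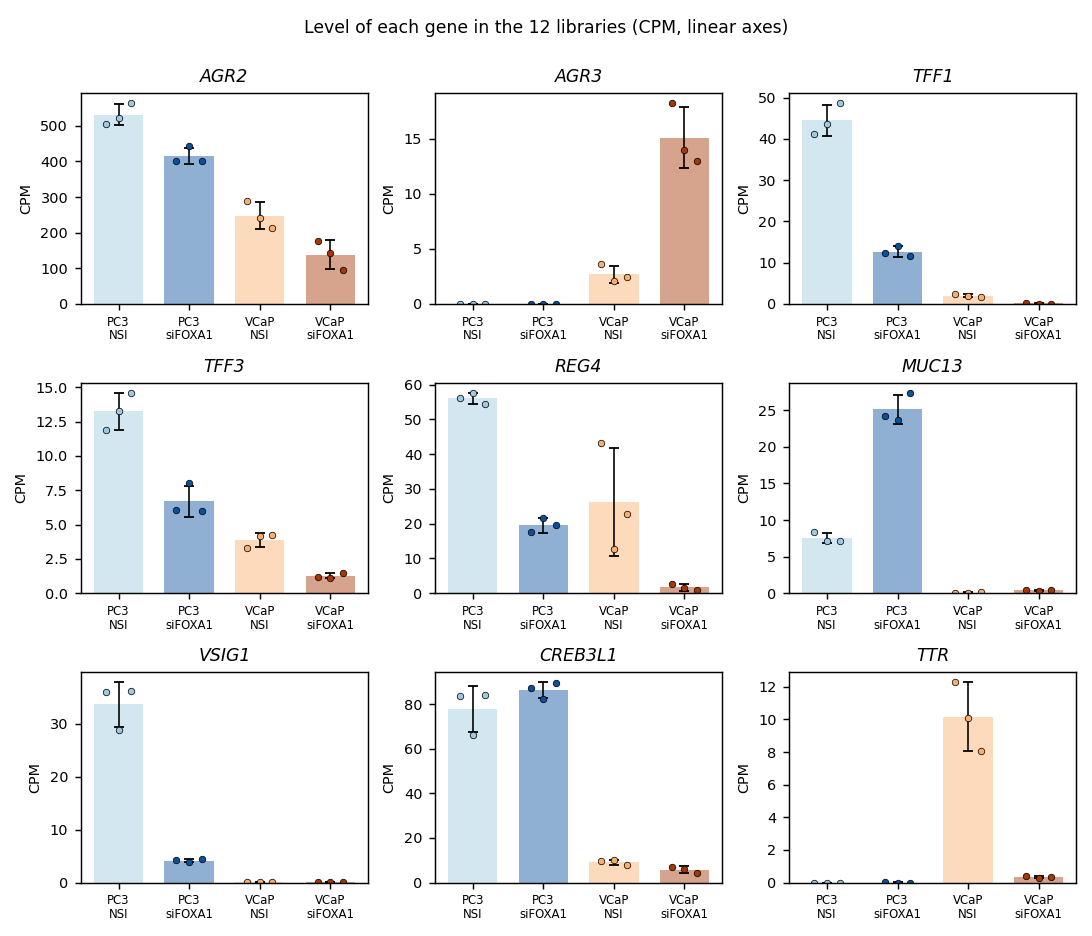
CPM of each of the 9 genes in the 12 libraries, on linear axes that start at 0 and differ between panels; bars are means of 3 libraries, error bars are SD and points are libraries. MUC13 and AGR3 are the genes whose siFOXA1 libraries lie above the NSI libraries, CREB3L1 in PC3 is the gene whose groups overlap at a level well above 0, and the 3 VCaP NSI libraries of REG4 are spread widely.

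TFF1 and TFF3, small secreted trefoil peptides that protect mucosal surfaces, are 46.6 kb apart on the minus strand of chromosome 21 (GRCh37, TFF1 43782391 to 43786703, TFF3 43731777 to 43735761). Both were lower with siFOXA1 in both lines, TFF1 by more. In PC3, TFF1 went from 41.1, 43.7 and 48.6 CPM under NSI to 12.3, 14.1 and 11.7 CPM under siFOXA1, so that 28.6% was kept (log2 change -1.81, SE 0.11). In VCaP, where the level was low, it was at 2.35, 1.83 and 1.69 CPM against 0.198, 0.0795 and 0.0952 CPM. Those siFOXA1 values are 10, 4 and 5 counts, and the change of -3.95 (SE 0.30) was -4.45 without siFOXA1 replicate 1, the library with most of them, and -3.72 without siFOXA1 replicate 2. TFF1 passed the VCaP filter only through the NSI libraries, the group where it was higher.

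The PC3 libraries held TFF3 at 11.9, 13.3 and 14.6 CPM under NSI and 6.03, 8.01 and 6.02 CPM under siFOXA1. The groups were separate, with 50.3% kept (log2 change -0.99, SE 0.14). In VCaP it was at 3.31, 4.14 and 4.22 CPM against 1.21, 1.11 and 1.47 CPM, also separate, with 32.5% kept (-1.62, SE 0.16). The VCaP change minus the PC3 change was -0.64 (SE 0.22) for TFF3 and -2.17 (SE 0.31) for TFF1. In PC3 the level of TFF1 per length was well above that of TFF3 in both conditions, whereas in VCaP siFOXA1 it was below it, at 0.177 against 0.866 TPM, with no overlap.

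REG4 encodes a secreted C-type lectin of the gut (chromosome 1, 120336641 to 120354283, minus strand, GRCh37). It was lower with siFOXA1 in both lines. The PC3 values were 56.2, 57.7 and 54.5 CPM under NSI against 17.5, 21.7 and 19.5 CPM under siFOXA1, narrow groups far apart, with 34.9% kept (log2 change -1.52, SE 0.10). In VCaP the NSI libraries ranged widely, at 43.3, 12.8 and 22.8 CPM, and the siFOXA1 libraries were at 2.64, 1.37 and 0.971 CPM. Even the lowest NSI library was above the highest siFOXA1 library, with 6.31% of the mean kept (-3.99, SE 0.48). The VCaP value lay between -4.49 and -3.44 over the other settings tried, and the difference between the lines, -2.48 (SE 0.49), between -2.99 and -1.93, the last without VCaP NSI replicate 1.

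MUC13 encodes a membrane-spanning mucin of gut epithelium (chromosome 3, 124624289 to 124653595, minus strand, GRCh37). It was higher with siFOXA1 in both lines, at very different levels. In PC3 it went from 8.3, 7.14 and 7.12 CPM under NSI to 24.2, 23.7 and 27.4 CPM under siFOXA1, 3.33-fold by the means (log2 change 1.74, SE 0.11). In VCaP it went from 0.0963, 0.0598 and 0.139 CPM to 0.456, 0.278 and 0.4 CPM (1.89, SE 0.36). That is 15 counts in all against 58, with no overlap between libraries, and MUC13 passed the VCaP filter only through the siFOXA1 libraries. The difference between the lines was 0.15 (SE 0.34, 95% interval -0.52 to 0.83) and changed sign with the setting (-0.10 to 0.51).

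TTR encodes transthyretin, a carrier of thyroxine and of retinol-binding protein made by liver and choroid plexus (chromosome 18, 29171689 to 29178984, plus strand, GRCh37). Its RNA was found in VCaP, where siFOXA1 left a small part. The NSI libraries held 12.3, 10.1 and 8.08 CPM and the siFOXA1 libraries 0.417, 0.258 and 0.362 CPM. These are 640, 505 and 465 counts against 21, 13 and 19, a mean 29.4-fold lower (log2 change -4.87, SE 0.22), the largest log2 change fitted for any of the 9 genes. In PC3 there were 0 counts in NSI and 1 in siFOXA1, so no change can be given. A count of 0 allows up to 0.0159 to 0.0212 CPM in a PC3 NSI library, by counting error.

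VSIG1 encodes an immunoglobulin-type adhesion protein of stomach epithelium (chromosome X, 107288200 to 107322414, plus strand, GRCh37). Its RNA was found in PC3, at 36.1, 28.8 and 36.2 CPM under NSI but 4.25, 3.81 and 4.38 CPM under siFOXA1. Each siFOXA1 library was far below each NSI library, and the mean was 8.13-fold lower (log2 change -3.02, SE 0.12), the largest change of the 7 genes that passed the filter in PC3. In VCaP the libraries summed to 6.75 counts in NSI and 9.91 in siFOXA1, below the filter. TTR and VSIG1 thus each gave a large change in the 1 line that expressed them, and the other line has no level from which to compare.

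CREB3L1 encodes a transcription factor held in the endoplasmic reticulum membrane, which is cut in the Golgi and then acts on secretory pathway genes (chromosome 11, 46299212 to 46342972, plus strand, GRCh37). Its PC3 libraries held 83.5, 66 and 84.1 CPM under NSI and 87.4, 82.3 and 89.3 CPM under siFOXA1. These groups overlapped, and the log2 change was 0.15 (SE 0.11). In VCaP it was at 9.47, 10.1 and 7.73 CPM against 6.87, 6.28 and 4.06 CPM, separate groups with 63% kept (-0.67, SE 0.18). The difference between the lines was -0.83 (SE 0.22).

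Put together, 7 of the 9 genes passed the filter on low counts in PC3 and 8 in VCaP. An adjusted p under 0.05 was met in PC3 by 6 of these 7, 1 higher (MUC13) and 5 lower, where 27.7% of the 26478 genes tested met it. In VCaP it was met by all 8, 2 higher (MUC13 and AGR3) and 6 lower, where 45.8% of 22939 met it. Groups that did not overlap were seen for the same numbers, 6 and 8, beside 45.1% and 55.9% of all genes. As the genes were chosen on these contrasts, nothing is read from the counts. Of the 6 genes measured in both lines, AGR2, TFF1, TFF3 and REG4 were lower in both, MUC13 was higher in both, and CREB3L1 was lower in VCaP while its PC3 groups overlapped. The PC3 threshold was no longer met by AGR2 under scaling by library size alone (log2 change -0.26), in a fit over all 12 libraries, or on leaving out any of 3 PC3 libraries: replicate 3 of NSI, and replicate 1 or 3 of siFOXA1. The VCaP threshold was no longer met by CREB3L1 when replicate 2 of VCaP NSI was left out.

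**Figure D3:**
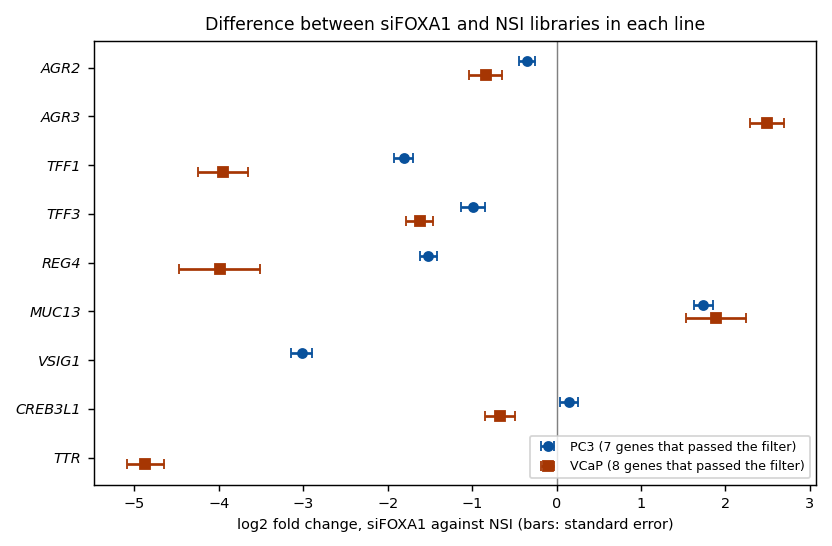
Log2 fold change of siFOXA1 against NSI with its standard error for the 7 genes that passed the filter in PC3 (circles) and the 8 in VCaP (squares). TTR (-4.87), REG4 (-3.99) and TFF1 (-3.95) lie farthest to the left in VCaP, VSIG1 (-3.02) in PC3, and MUC13 and AGR3 lie to the right of 0.

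The genes around these 9 were not used to choose them, and each was tested over all genes of the fit. Within 100 kb lay 32 other genes that passed the filter in at least 1 line. In PC3 1 of the 30 tested rose and 10 fell, beside 13.9% of all genes in each direction, and in VCaP 5 of 22 rose and 9 fell, beside 22.5% and 23.3%. Around the trefoil genes the PC3 falls reached beyond TFF1 and TFF3. TFF2, the remaining trefoil gene, fell from 33 ± 7.94 to 11.2 ± 0.468 CPM (SD, n = 3) in PC3 (log2 change -1.56, SE 0.16, adjusted p = 3.28e-04, edgeR), and TMPRSS3, a membrane serine protease gene 5.24 kb from TFF1, fell by 1.10 on the log2 scale (SE 0.17, adjusted p = 0.00238). UBASH3A, at 0.272 CPM in PC3 NSI, fell by 1.02 (SE 0.32, adjusted p = 0.0434), a call lost under 8 of the settings tried. ABCG1, a cholesterol exporter gene on the far side of TFF3, had a PC3 value of -0.39 (SE 0.13, adjusted p = 0.0518; adjusted p = 0.00216 with the replicate number as a block) and rose in VCaP by 1.36 (SE 0.11, adjusted p = 1.49e-05), where TFF1 and TFF3 were lower and TFF2 had 0 counts.

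Around the AGR genes the neighbours went their own ways. In PC3 BZW2, 85.3 kb from AGR2, fell by 1.07 (SE 0.08, adjusted p = 4.18e-05), and TSPAN13, between BZW2 and AGR2, fell by 0.34 (SE 0.08, adjusted p = 0.0165), a call lost under 5 settings. In VCaP BZW2 rose by 0.44 (SE 0.08, adjusted p = 0.00159) and TSPAN13 had a value of 0.07 (adjusted p = 0.516). The RNA named AC073333.8 fell by 1.08 in PC3 (SE 0.13, adjusted p = 6.41e-04), and as it overlaps BZW2 on the other strand and PC3 counts ignored strand, their reads cannot be told apart there. A processed pseudogene inside the span of AGR3 on its strand, AC098592.5, rose by 2.48 in VCaP (SE 0.38, adjusted p = 5.58e-04), next to 2.49 for AGR3, and unspliced AGR3 RNA cannot be told apart from it. AC098592.5 was at 0.0695 to 0.347 CPM in VCaP NSI and 1.03 to 1.53 CPM in siFOXA1. It passed the VCaP filter only through the siFOXA1 libraries, so nothing is read from its call.

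**Figure D4:**
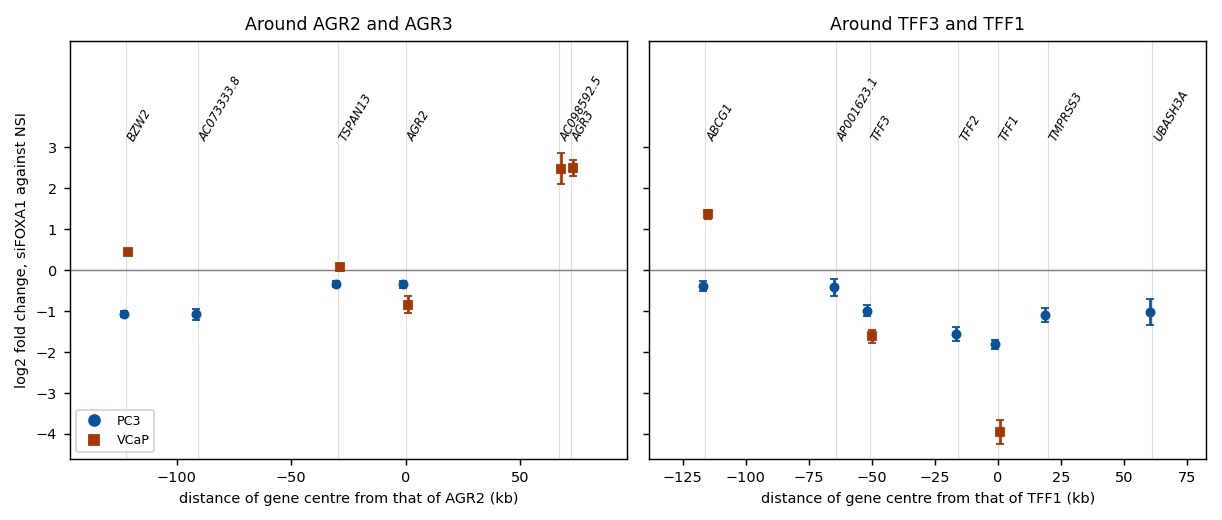
Log2 fold change with standard error (PC3 circles, VCaP squares) against the distance of each gene's centre from that of AGR2 (left) or TFF1 (right), in kb, for genes that passed the filter. In PC3 the points around TFF1 lie below 0, whereas in VCaP ABCG1 (1.36) lies above 0 beside TFF3 and TFF1, and AGR3 lies above 0 beside AGR2.

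Next to REG4, PHGDH, the gene of the enzyme that starts serine synthesis, had an adjusted p of 0.0299 in PC3 (-0.29, SE 0.08) that was lost under 9 settings. Next to VSIG1, COL4A6, a basement membrane collagen gene, rose in PC3 by 0.87 (SE 0.08, adjusted p = 1.38e-04), opposite to VSIG1, and PSMD10, 5.02 kb from VSIG1, had a value of -0.28 (SE 0.09, adjusted p = 0.0384) that 9 settings did not keep. Next to TTR in VCaP, the desmosome gene DSG2 fell by 1.06 (SE 0.11, adjusted p = 5.44e-05), and B4GALT6 had a value of -0.02 (SE 0.10, adjusted p = 0.881). Next to MUC13, ITGB5, an integrin gene, fell in PC3 by 0.77 (SE 0.08, adjusted p = 2.83e-04) and in VCaP by 0.29 (SE 0.07, adjusted p = 0.00851), opposite to MUC13. Next to CREB3L1 in VCaP, the growth factor gene MDK fell by 0.97 (SE 0.09, adjusted p = 2.36e-05).

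Genes that work with the 9 were described by lists, and each list's counts are to be read beside the share of all genes called in the same direction, 13.9% higher and 13.9% lower in PC3 and 22.5% and 23.3% in VCaP. No test of a list was made. Some list counts hold genes that passed the filter only through the group where they were higher, so their direction was fixed in advance. The list of 29 trefoil, mucin and goblet secretory genes split in both lines. In PC3 9 of 23 tested rose and 2 fell (median log2 change 0.30, all genes -0.01; 4 fell without PC3 NSI replicate 2), and in VCaP 5 of 14 rose and 8 fell (median -0.88, all genes 0.02). The 2 that fell in PC3 were TFF2 and MUC5AC, the gel-forming mucin of stomach and airway, which went from 40.3 ± 15.5 to 15.6 ± 2.03 CPM (-1.37, SE 0.27, adjusted p = 0.00705). MUC1, a membrane-spanning mucin, rose in PC3 from 4.98 ± 0.411 to 15.5 ± 3.92 CPM (1.64, SE 0.18, adjusted p = 3.95e-04), as MUC13 was higher there. By kind, a grouping made after the values were seen, 6 of 7 tested membrane-spanning mucin genes rose in PC3 (MUC1, MUC3A, MUC4, MUC12, MUC15 and MUC20), beside 13.9% of all genes, and of 4 gel-forming genes 1 fell and none rose. In VCaP the membrane-spanning genes tested were MUC16 and MUC20, both called higher, and no gel-forming gene passed the filter. MUC16, at 0.0441 CPM in NSI and 0.893 CPM in siFOXA1, passed only through the group where it was high, so nothing is read from its call. Among the enzymes that start mucin-type sugar chains, GALNT12 rose in PC3 by 1.79 (SE 0.11, adjusted p = 1.70e-05) and fell in VCaP by 2.57 (SE 0.22, adjusted p = 1.43e-05), a tested difference of -4.38 (SE 0.23, adjusted p = 6.82e-09). None of the 4 other REG lectin genes, REG1A, REG1B, REG3A and REG3G, passed the filter in either line.

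The other protein disulfide isomerase genes were called in both directions, in PC3 at about the share of all genes. In PC3 3 of 18 rose and 2 fell (median 0.03), beside 27.7% of all genes called, and in VCaP 7 of 19 rose and 6 fell (median 0.05), beside 45.8%. The counts were 1 and 1 without PC3 NSI replicate 3 or without PC3 siFOXA1 replicate 1, 1 fell without any of 3 other PC3 libraries (NSI replicate 1 or 2, siFOXA1 replicate 3), and 3 rose without VCaP NSI replicate 1. PDIA4 fell in VCaP from 319 ± 11.6 to 71.4 ± 7.31 CPM (-2.16, SE 0.09, adjusted p = 2.50e-07), while its PC3 value was 0.00 (SE 0.08). P4HB, the most studied isomerase of the family, fell in VCaP by 0.83 (SE 0.10, adjusted p = 1.23e-04) and rose in PC3 by 0.32 (SE 0.08, adjusted p = 0.0195), the latter lost without PC3 NSI replicate 3 or PC3 siFOXA1 replicate 1. TXNDC5 fell in PC3 by 1.10 (SE 0.08, adjusted p = 3.57e-05).

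Around CREB3L1, the list of its family, the proteases that cut it and the vesicle coat held more falls than rises in VCaP. There 3 of 23 rose and 11 fell (median -0.30, all genes 0.02), beside 22.5% and 23.3% of all genes, and 1 rose without VCaP NSI replicate 1 or 2 or without VCaP siFOXA1 replicate 1. In PC3 1 of 25 rose and 1 fell, beside 27.7% of all genes called, or 6 and 4 with the replicate number as a block, beside 42.8%. Without PC3 NSI replicate 1 or 2 or PC3 siFOXA1 replicate 2 there were 3, 5 and 2 rises. In VCaP the related factor CREB3L4 fell from 68.3 ± 5.61 to 21.1 ± 1.59 CPM (-1.69, SE 0.08, adjusted p = 5.81e-07), and SEC23B, a coat component, fell by 1.16 (SE 0.06, adjusted p = 8.47e-07). MBTPS1 and MBTPS2, the site-1 and site-2 proteases that release CREB3L1, fell there by 0.94 (SE 0.06, adjusted p = 2.57e-06) and 1.00 (SE 0.07, adjusted p = 4.69e-06), and both were picked out after their values were seen. Their PC3 values were -0.23 (SE 0.09, adjusted p = 0.0802, or 0.0104 with the block) and 0.01 (SE 0.14, adjusted p = 0.979).

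A list of 20 genes held liver-type plasma proteins and STRA6, a membrane receptor for retinol-binding protein. Its genes measured in VCaP moved in both directions beside TTR. There 5 of 9 rose and 3 fell (median 0.69), beside 22.5% and 23.3% of all genes, and in PC3 3 of 10 rose and 2 fell (median 0.61), beside 13.9% each way. Of the VCaP rises, APOB (0.0174 to 0.0578 CPM in NSI, 0.278 to 0.305 in siFOXA1) and CP passed the filter only through the siFOXA1 libraries. Of the falls, APOH passed it only through the NSI libraries. The filter fixed their direction, so nothing is read from these calls. None of the PC3 genes fell without PC3 siFOXA1 replicate 1, and 1 fell without replicate 3. ALB, serum albumin, fell in VCaP from 69.1 ± 0.877 to 5.06 ± 1.01 CPM (-3.77, SE 0.12, adjusted p = 9.82e-08), and APOH fell by 3.01 (SE 0.31, adjusted p = 4.77e-05). RBP4, the retinol-binding protein that transthyretin carries, fell in VCaP by 1.59 (SE 0.30, adjusted p = 0.00204) and in PC3, without TTR, by 0.44 (SE 0.11, adjusted p = 0.0155), the latter lost without PC3 siFOXA1 replicate 1 or replicate 3. SERPINA7, thyroxine-binding globulin, went the other way from TTR in VCaP, from 1.44 ± 0.162 to 13.8 ± 0.449 CPM (3.26, SE 0.11, adjusted p = 1.16e-07). SERPINA1, alpha-1 antitrypsin, rose in PC3 by 1.83 (SE 0.15, adjusted p = 7.42e-05) and in VCaP by 1.80 (SE 0.19, adjusted p = 6.55e-05).

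Among 23 transcription factors of gut, foregut and secretory lineages, 2 of 16 rose and 6 fell in PC3 (median -0.29), beside 13.9% of all genes each way, and 5 of 17 rose and 6 fell in VCaP (median -0.13), beside 22.5% and 23.3%. In PC3 1 rose without NSI replicate 3 or without any 1 siFOXA1 library, and 6 against 4 fell with and without siFOXA1 replicate 1. SPDEF, a goblet cell factor also present in prostate, fell in both lines, from 90.1 ± 4.27 to 34.3 ± 2.7 CPM in PC3 (-1.40, SE 0.09, adjusted p = 2.38e-05) and from 178 ± 17.6 to 21.2 ± 2.93 CPM in VCaP (-3.07, SE 0.12, adjusted p = 2.22e-07). GATA6 fell in VCaP by 1.82 (SE 0.19, adjusted p = 6.38e-05). FOXA2, a close relative of FOXA1 named here after its values were seen, rose in VCaP from 0.119 to 1.86 CPM (3.94, SE 0.27, adjusted p = 3.82e-06), and its PC3 value was 0.18 (SE 0.17, adjusted p = 0.445) at 31.6 CPM in NSI. In VCaP FOXA2 passed the filter only through the siFOXA1 libraries. KLF4 fell in PC3 by 0.60 (SE 0.11, adjusted p = 0.00469) and rose in VCaP by 1.37 (SE 0.17, adjusted p = 1.47e-04).

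Genes related to VSIG1 did not share its direction as a group. In PC3 4 of 12 tested adhesion genes rose and 1 fell (median 0.13), beside 13.9% of all genes each way, or 4 and 3 with the block, where 42.8% of all genes were called. The rises were 2 without PC3 NSI replicate 3 and without PC3 siFOXA1 replicate 1 or 2. In VCaP 5 of 7 rose and 2 fell (median 0.34), beside 22.5% and 23.3%. F11R, a tight junction adhesion gene, was the PC3 fall (-0.70, SE 0.08, adjusted p = 6.06e-04), and VSIG10L rose there by 0.68 (SE 0.10, adjusted p = 0.00196). Of 20 gut epithelial surface genes, 6 of 15 rose and 4 fell in PC3 (median 0.14), beside 13.9% of all genes each way, and 3 rose without PC3 NSI replicate 3. In VCaP 6 of 10 rose and 1 fell (median 0.65), beside 22.5% and 23.3%. CEACAM5, carcinoembryonic antigen, fell in PC3 from 63.9 ± 15.9 to 17.8 ± 2.62 CPM (-1.84, SE 0.19, adjusted p = 3.11e-04), and its relative CEACAM1 rose from 8.29 ± 1.25 to 27.1 ± 3.26 CPM (1.71, SE 0.14, adjusted p = 7.69e-05). Fragments shared by close relatives such as these were divided in the counting, so the split between them is uncertain. PIGR, the receptor that carries antibodies across epithelia, rose in VCaP from 0.282 ± 0.0645 to 12.8 ± 2.44 CPM (5.49, SE 0.21, adjusted p = 2.30e-07), and CDH17, an intestinal cadherin gene, rose there by 2.94 (SE 0.20, adjusted p = 3.74e-06).

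**Figure D5:**
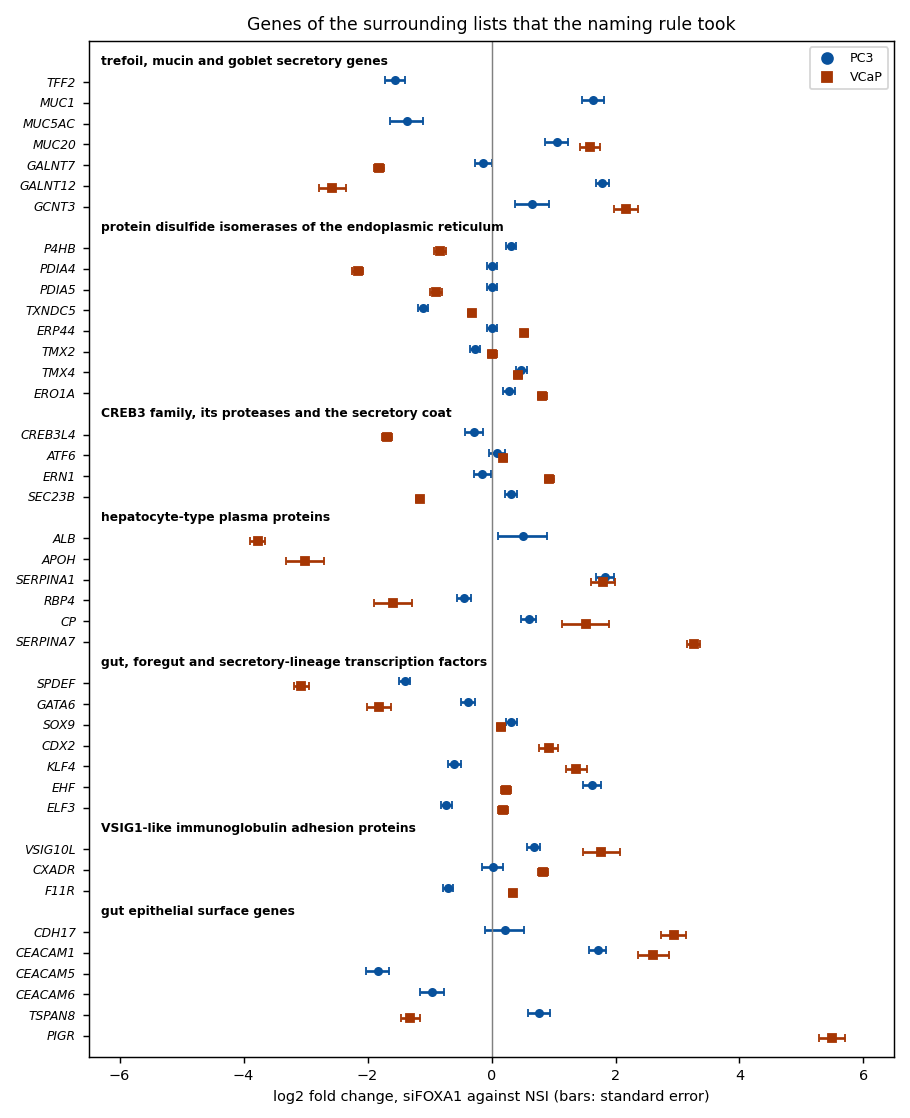
Log2 fold change with standard error in PC3 (circles) and VCaP (squares) of the genes that the naming rule took from 7 lists, a point being left out where the gene did not pass the filter. SPDEF lies to the left in both lines, SERPINA1 to the right in both, ALB and SERPINA7 lie on opposite sides in VCaP, and GALNT12 lies on opposite sides in the 2 lines.

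The genes whose log2 CPM over the 12 libraries was most like that of AGR2, among 14667 genes with at least 5 CPM in a group, were CLDN15 and RAB8A (Pearson r = 0.986 each) and MBD1 (0.981). For REG4 they were TXNL1 (0.987), SPTSSB (0.973) and SMPD4 (0.968), and for VSIG1 HS3ST5 (0.997), SF1 (0.994) and CAPN8 (0.993). SPTSSB resembled REG4 in size too, at 48 and 20.3 CPM in PC3 NSI and siFOXA1 and 31.6 and 5.71 CPM in VCaP, while TXNL1 moved only from 65.9 to 59.2 and from 57.1 to 42.8 CPM. HS3ST5 and CAPN8, like VSIG1, were at 11 and 17.4 CPM in PC3 NSI, 2.24 and 4.3 CPM in PC3 siFOXA1 and below 0.1 CPM in VCaP. These correlations are descriptions over 4 groups of 3 libraries that also share line, kit and depth.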

How the data were processed

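The authors deposited estimated counts per gene, made with featureCounts 2.0.0 on the GENCODE v28lift37 basic annotation of GRCh37, per the file headers, from STAR 2.7.3a alignments, per the submitters' processing notes. Per the file headers, the authors divided a fragment among all its mapped places and all the genes it touched, which leaves 54.8% to 75.2% of nonzero values not whole. PC3 counts ignored strand and VCaP counts used the reverse strand, per the file headers. Here the counts were rounded (ties upward) and fitted with edgeR 4.0.16 in R 4.3.3: TMM factors, filterByExpr, two-sided quasi-likelihood test, Benjamini-Hochberg adjustment over all genes tested, call at 0.05. Each line was fitted alone, the difference between lines over all 12 libraries, and the baseline over the 6 NSI libraries. CPM values carry the TMM factors of that line, and TPM uses exon lengths from the tables. No exon base of the 9 genes overlapped another gene. Other settings tried were other scalings, no filter, DESeq2 1.42.0, the replicate block, a fit over all libraries, protein-coding genes only for the baseline, and each library left out; another rounding was chosen after seeing the data. The fit was tested on simulated counts.

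The 9 genes and the lists were chosen with earlier results of these data known. Besides the 9 genes and FOXA1, the naming rule took from each list per line, the 2 calls that rose most and the 2 that fell most (mean of 1 CPM or more), genes within 100 kb of the 9, and for AGR2, REG4 and VSIG1 the 3 most alike. Some of these genes are not reported here. In PC3 same-numbered libraries deviated together (r = 0.411, 0.569 and 0.205 for numbers 1, 2 and 3, against -0.0948, -0.399 and -0.0498 on average for other numbers). This pairing was seen in the data and is not named in the labels. The main fits did not use it, so their SE and adjusted p values are unpaired, and the replicate block is the setting that did. Replicates differed far beyond sampling noise (chi-square over its degrees of freedom 11 to 158), so none was counted as a duplicate.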

Additional observations from a re-analysis of the deposited data

Results flagged for a closer look

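The effect of siFOXA1 was compared between VCaP and PC3 by a test of that difference (edgeR over 12 libraries). An adjusted p under 0.05 was met by 22.1% of 30450 genes, and by 38 list genes and neighbours that the naming rule took. List genes were taken for a large change in a line in these same libraries, so 38 is not to be read against that share. Of genes named outside the rule, which are not among the 38, FOXA2 (3.76), MUC16 (3.68), MBTPS1 (-0.73), MBTPS2 (-1.02) and KDELR1 (-0.99) also passed. These were named after their values were seen, so nothing is read from their passing. In the VCaP fit FOXA2 and MUC16 had passed the filter only through the siFOXA1 libraries. Values are the VCaP minus the PC3 log2 change, with the SE where the gene stands out. The cause was not tested, and line, kit, dose, medium and strand setting cannot be told apart.

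Among genes of mucin making, GALNT12 differed by -4.38, GALNT7 by -1.70 and GCNT3 by 1.51. Among endoplasmic reticulum isomerases and their partners, PDIA4 differed by -2.18, P4HB by -1.16, PDIA5 by -0.91, TXNDC5 by 0.76, ERO1A by 0.53 (lost without PC3 NSI replicate 1 or 3 or PC3 siFOXA1 replicate 2) and ERP44 by 0.51. In the list around CREB3L1, SEC23B differed by -1.48, CREB3L4 by -1.42 and ERN1 by 1.06. Of the plasma protein genes, APOH differed by -4.77 (SE 1.11), ALB by -4.25 (SE 0.35) and RBP4 by -1.16; APOH was near 0 in PC3, so its value rests on few counts there, and its call was lost without PC3 siFOXA1 replicate 3.

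For lineage factors the difference was 1.96 for KLF4, 0.90 for ELF3, -1.40 for EHF, -1.46 for GATA6 and -1.69 for SPDEF. For adhesion genes it was 1.08 for VSIG10L (lost without siFOXA1 replicate 1 of PC3 or replicate 1 or 2 of VCaP), 1.02 for F11R and 0.79 for CXADR. For gut surface genes it was 6.39 for PIGR (SE 0.81, near 0 in PC3), 2.72 for CDH17, 0.89 for CEACAM1 (adjusted p = 0.0489, lost under 12 settings) and -2.10 for TSPAN8.

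Among neighbours of the 9 genes, ABCG1 differed by 1.73, BZW2 by 1.49, ATG4A by 0.65, ITGB5 by 0.46, PHGDH by 0.44 (lost under scaling by library size alone and without replicate 3 of PC3 NSI or PC3 siFOXA1) and TSPAN13 by 0.40 (lost under 12). In the other direction, CTD-2589M5.4 differed by -2.42, MDK by -1.20, COL4A6 by -1.17, DSG2 by -1.07 and HEG1 by -1.03.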

How the results depend on the processing

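The PC3 comparison called 7344 genes, and 11333 with the replicate block; leaving out single libraries gave 3963 to 7628, with 3963 without PC3 siFOXA1 replicate 1 and 4738 without PC3 NSI replicate 3. Scaling by library size alone moved the PC3 calls to 4607 higher and 2562 lower (64.3% higher), from 3675 and 3669. The VCaP comparison called 10500 genes, and 11474 with the replicate block. There same-numbered libraries correlated at 0.0925, 0.0364 and 0.35, against -0.0145, -0.00244 and -0.215 on average for other numbers. A pairing is thus seen for number 3 and is weak for numbers 1 and 2. The difference between the lines called 6744 genes, and 8832 with the block. With protein-coding genes only, where fewer genes are tested, the baseline comparison called 14073 genes in place of 24517. Upper-quartile scaling moved the median baseline log2 difference of all genes from -0.07 to 0.22, and all 9 genes kept their direction there. Under the block the list counts of PC3 that were more than 1.5 times larger are given with those lists, no call on the 9 genes within a line changed, the difference between the lines passed for AGR2, and of the other genes with a PC3 value in the text ABCG1 and MBTPS1 came under 0.05. The 7 genes above the filter in PC3 and the 8 in VCaP kept their direction in that line under every setting run; between the lines the sign for MUC13 did not hold. Among genes above the filter, the fewest counts in a group were 15 for MUC13 (NSI) and 19 for TFF1 (siFOXA1) over 3 VCaP libraries.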

Other observations

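Away from the lists' main genes, MUC16, a large membrane-spanning mucin, was at 0.0441 CPM in VCaP NSI and 0.893 CPM in VCaP siFOXA1 (log2 change 4.28, SE 0.33, adjusted p = 9.15e-06, edgeR), while its PC3 value was 0.61 (SE 0.48, adjusted p = 0.378). MUC16 passed the VCaP filter only through the siFOXA1 libraries, so it was tested there only because it was higher in them. KDELR1, a receptor that returns proteins to the endoplasmic reticulum, fell in VCaP from 82.7 to 42.4 CPM (-0.96, SE 0.13, adjusted p = 2.57e-04), with a PC3 value of 0.01 (SE 0.10, adjusted p = 0.95). Both genes were named after their values were seen.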
